A study of Mus musculus with 12 samples.

Results

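The genes through which fat tissue takes fatty acids from circulating triglyceride were followed in mouse inguinal white adipose tissue (iWAT). They are Lpl, Gpihbp1, Lmf1, Angptl4, Cd36, Fabp4, Fabp5, Slc27a1, Acsl1 and Vldlr. These 10 members were taken by their gene name from a table of 54134 genes. Each name had a single gene identifier, and all 10 passed the filter on low counts, which left 15585 genes for testing.

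The study asked what a liver-made excess of NOTUM, a secreted enzyme that inactivates Wnt ligands, does to fat. Male C57BL/6J mice were injected at 8 weeks of age with an adeno-associated virus (AAV) that carried either mouse Notum (AAV-Notum, n = 6) or green fluorescent protein (AAV-GFP, n = 6). All 12 mice ate chow for 4 weeks and were fasted for 4 h before iWAT was collected and its RNA sequenced. In both viruses the thyroxine binding globulin promoter, which is active in hepatocytes, drove the insert, so the added gene was meant to be made in liver and not in fat. No group of mice without a virus was analysed here.

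Lipoprotein lipase (LPL) splits the triglyceride of chylomicrons and very low density lipoproteins on the capillary wall. Parenchymal cells, in fat the adipocytes, make the enzyme and fold it with the help of LMF1, and the endothelial protein GPIHBP1 carries it across to the capillary lumen. ANGPTL4, which fasting raises in white fat, unfolds LPL and so lowers triglyceride uptake there. The released fatty acids enter cells with the help of CD36 and SLC27A1, bind to the carriers FABP4 and FABP5, and are activated by ACSL1, while VLDLR binds whole lipoprotein particles near the enzyme.

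The libraries held 15266635 to 21618860 reads on genes in AAV-GFP mice (median 18378579) and 14711113 to 17838229 in AAV-Notum mice (median 17361386). RNA integrity numbers ran from 5.7 to 7.6 in AAV-GFP mice and from 6.9 to 7.4 in the others, and RNA of mouse AAV-GFP-2012 alone was isolated on a later date than that of the other 11 mice. Notum itself had 1 to 17 reads in the fat of AAV-GFP mice and 8 to 16 in 4 AAV-Notum mice, with 560 in mouse AAV-Notum-2032 and 433 in mouse AAV-Notum-2041. Since the virus targets liver, these reads do not test the labels. The adipocyte markers were present as the tissue label would have it, with 10 of 10 tested and a summed level of 23178 to 43532 CPM (reads scaled to library size) in AAV-GFP mice and 21315 to 46993 CPM in AAV-Notum mice. The lymphoid marker score, the mean log2 CPM of 15 genes of T and B cells, set AAV-GFP-2014 (-0.08) and AAV-GFP-2011 (0.49) apart, since mouse AAV-GFP-2012 had 3.74 and the other 9 mice 5.26 to 7.26.

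No member of the fatty acid uptake set changed between AAV-Notum and AAV-GFP mice at an adjusted p under 0.05. The call was 0 of 10 from edgeR's quasi-likelihood test with Benjamini-Hochberg adjustment over 15585 genes, where 0.0513% of all genes were called. With limma-voom it was also 0 of 10, in a fit that called 0 genes higher and 6 lower. DESeq2 gave 0 of 10 as well, and called 1.41% of the 31947 genes that had any read. At an unadjusted p under 0.05, edgeR gave 1 member higher (Fabp5) and 2 lower (Gpihbp1 and Angptl4), against 4.64% and 9.54% of all genes. Log2 fold changes were below 0 for 8 members and for 48.8% of all genes, and the median was -0.13 over the members and 0.01 over all genes. In 0 of 10 members were the groups free of overlap, which held for 1.09% of all genes. In whole tissue, fewer cells of a type and less RNA per cell cannot be told apart.

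**Figure D1:**
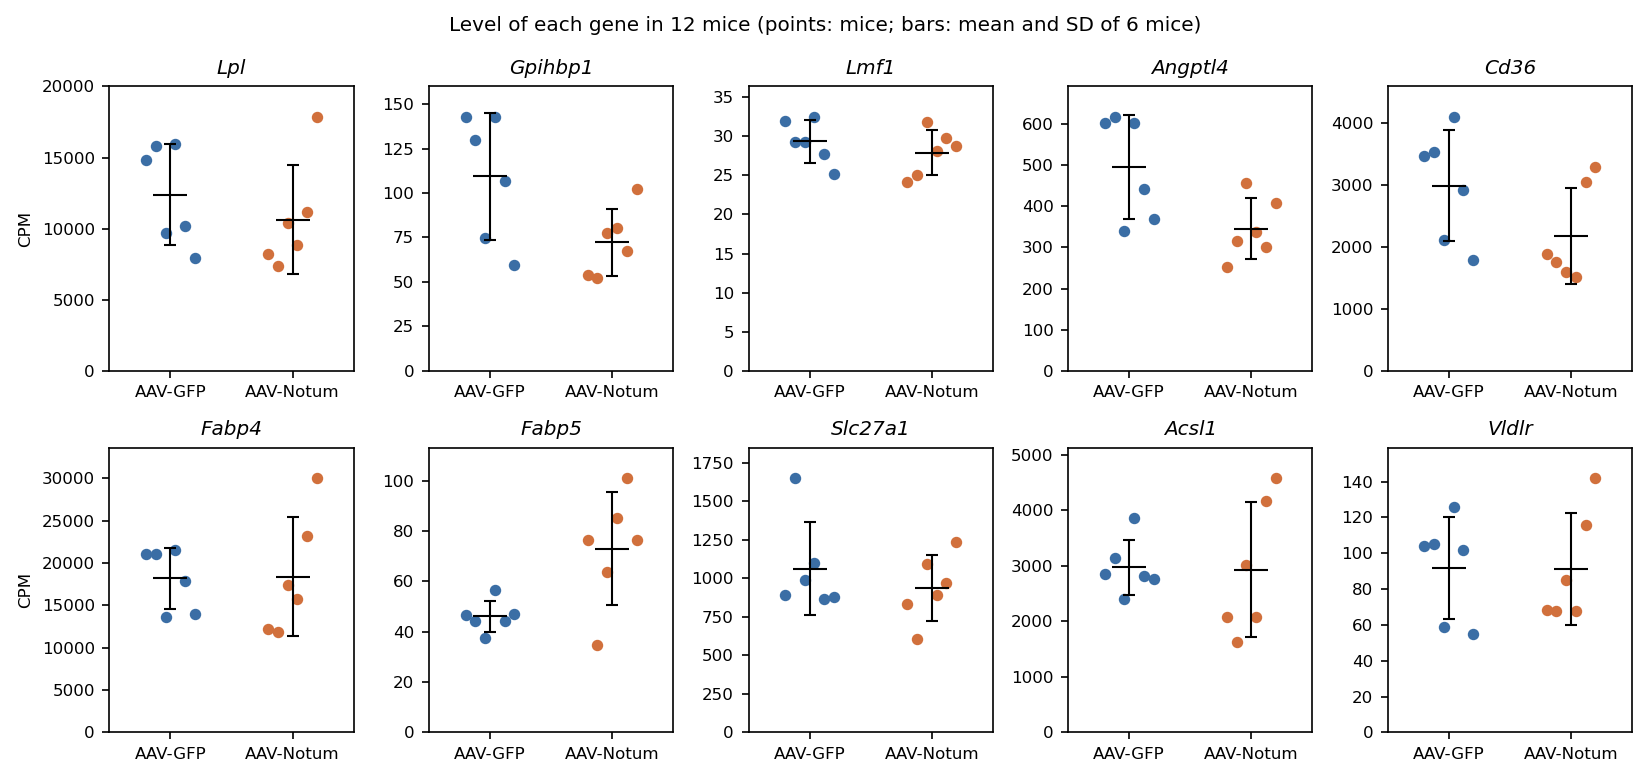
Levels in CPM (reads scaled to library size, vertical axes from 0) of the 10 genes in 6 AAV-GFP and 6 AAV-Notum mice, with 1 point per mouse and bars for the mean and SD. The groups overlap in every panel. For Fabp5 5 AAV-Notum points lie over all AAV-GFP points, and for Angptl4 4 lie under them.

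Lpl (ENSMUSG00000015568, GRCm38 chromosome 8, 68880491 to 68907448, plus strand), the lipase itself, was among the most abundant transcripts of the tissue. In AAV-GFP mice the lowest, median and highest Lpl levels were 7916, 12494 and 15966 CPM, and in AAV-Notum mice they were 7342, 9619 and 17886 CPM. The group means were 12395 ± 3541 CPM (SD, n = 6) and 10642 ± 3816 CPM (SD, n = 6). The highest level of all belonged to mouse AAV-Notum-2042, while the other 5 mice given Notum stayed under the mean of the controls, and the ranges overlapped almost throughout. The log2 fold change was -0.22 (standard error 0.29, 95% interval -0.86 to 0.42, adjusted p = 0.684 from edgeR, two-sided exact permutation p = 0.385). A decrease to 0.551-fold or an increase to 1.34-fold would both lie within that interval, and without mouse AAV-Notum-2042 the log2 fold change was -0.43. That library also stood apart in skeletal muscle, a tissue that makes LPL: the summed level of 10 muscle markers (Acta1, Ckm, Myh4 and others) was 3784 CPM there, 10.4 to 539 CPM in the other 5 AAV-Notum mice and 9.73 to 798 CPM in AAV-GFP mice. The part of muscle RNA in the Lpl level was not tested, and the mouse also had the highest adipocyte marker score of its group (mean log2 CPM of 10 adipocyte genes, 10.69).

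Lmf1 (ENSMUSG00000002279, chromosome 17, 25579085 to 25662826, plus strand), which matures LPL in the endoplasmic reticulum, was the steadiest member. Its levels were 25.2, 29.3 and 32.5 CPM (lowest, median, highest) in AAV-GFP mice and 24.1, 28.4 and 31.8 CPM in AAV-Notum mice. Both groups covered nearly the same span, with coefficients of variation of 9.19% and 10.4%. For Lmf1 the log2 fold change was -0.07 (standard error 0.09, 95% interval -0.27 to 0.12, edgeR adjusted p = 0.656, exact permutation p = 0.372), so that a fold outside 0.832 to 1.09 lay beyond the interval.

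Gpihbp1 (ENSMUSG00000022579, chromosome 15, 75596628 to 75599481, plus strand), the capillary platform for LPL, had 59.7, 118 and 143 CPM in AAV-GFP mice and 52.1, 72.6 and 102 CPM in AAV-Notum mice (lowest, median, highest). The means were 109 ± 35.6 CPM and 72.3 ± 18.9 CPM (SD, n = 6 each). Each of the 6 AAV-Notum values was under the mean of the controls and 4 AAV-GFP values were over all AAV-Notum values, but mice AAV-GFP-2013 (74.6 CPM) and AAV-GFP-2022 (59.7 CPM) lay within the AAV-Notum range. The log2 fold change was -0.60 (standard error 0.24, 95% interval -1.12 to -0.08, unadjusted p = 0.0266, adjusted p = 0.296 from edgeR, exact permutation p = 0.0606). Without mice AAV-GFP-2014 and AAV-GFP-2011, which held the highest Gpihbp1 levels (143 CPM each) and the lowest lymphoid scores, it was -0.36, and with the lymphoid score as a covariate it was -0.17.

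Angptl4 (ENSMUSG00000002289, chromosome 17, 33773750 to 33781830, minus strand), the inhibitor of LPL, had 341, 522 and 618 CPM in AAV-GFP mice and 253, 327 and 457 CPM in AAV-Notum mice (lowest, median, highest). Means were 496 ± 127 CPM and 345 ± 74.8 CPM (SD, n = 6 each). Each of the 6 AAV-Notum values was under the mean of the controls, and 4 were under the lowest control value, with mice AAV-Notum-2033 (457 CPM) and AAV-Notum-2042 (408 CPM) inside the AAV-GFP range. The log2 fold change was -0.52 (standard error 0.19, 95% interval -0.94 to -0.11, unadjusted p = 0.0178, adjusted p = 0.261 from edgeR, exact permutation p = 0.0390). With the lymphoid score as a covariate it was -0.21, and without mice AAV-GFP-2014 and AAV-GFP-2011 it was -0.36 (exact permutation p = 0.152). On log2 CPM, Angptl4 and Fabp5 were the 2 members with an exact permutation p under 0.05, which 13.2% of all genes reached.

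Cd36 (ENSMUSG00000002944, chromosome 5, 17781690 to 17888801, minus strand), a fatty acid translocase of adipocytes, endothelium and macrophages, had 1786, 3194 and 4106 CPM in AAV-GFP mice and 1513, 1819 and 3293 CPM in AAV-Notum mice (lowest, median, highest). Of the AAV-Notum mice, 4 had 1513 to 1880 CPM, apart from mice AAV-Notum-2041 (3044 CPM) and AAV-Notum-2042 (3293 CPM), which were over the control mean. For Cd36 the log2 fold change was -0.45 (standard error 0.27, 95% interval -1.04 to 0.13, edgeR adjusted p = 0.431, exact permutation p = 0.106). It was -0.06 with the lymphoid score as a covariate.

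Slc27a1 (ENSMUSG00000031808, chromosome 8, 71568882 to 71587302, plus strand), the fatty acid transport protein FATP1, had 868, 941 and 1651 CPM in AAV-GFP mice and 609, 931 and 1234 CPM in AAV-Notum mice (lowest, median, highest). The medians nearly met. The highest level was that of mouse AAV-GFP-2012, the one with the later RNA isolation, whereas the other 5 AAV-GFP mice had 868 to 1100 CPM. Its log2 fold change was -0.18 (standard error 0.20, 95% interval -0.62 to 0.26, edgeR adjusted p = 0.625, exact permutation p = 0.426) and -0.01 without that mouse. The part of the isolation date in the Slc27a1 level cannot be told apart from that mouse.

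Fabp4 (ENSMUSG00000062515, chromosome 3, 10204088 to 10208576, minus strand), the main fatty acid carrier of adipocytes, had 13647, 19438 and 21562 CPM in AAV-GFP mice and 11807, 16552 and 30033 CPM in AAV-Notum mice (lowest, median, highest). Both the 2 lowest and the 2 highest mice were AAV-Notum, and the coefficient of variation was 20% and 38.3% in turn. For Fabp4 the log2 fold change was 0.02 (standard error 0.31, 95% interval -0.66 to 0.69, edgeR adjusted p = 0.980, exact permutation p = 0.874), an interval that leaves room for 0.635-fold to 1.61-fold.

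Fabp5 (ENSMUSG00000027533, chromosome 3, 10012548 to 10016607, plus strand), the epidermal-type carrier that adipocytes, endothelium and macrophages also make, had the smallest p of the set and a log2 fold change above 0. It had 37.3, 45.5 and 56.7 CPM in AAV-GFP mice and 34.8, 76.4 and 101 CPM in AAV-Notum mice (lowest, median, highest). The means were 46.1 ± 6.28 CPM and 72.9 ± 22.4 CPM (SD, n = 6 each). As many as 5 of 6 AAV-Notum values lay over the whole AAV-GFP range, and that of mouse AAV-Notum-2032 (34.8 CPM) lay under it. The log2 fold change was 0.66, or 1.58-fold (standard error 0.20, 95% interval 0.22 to 1.11, unadjusted p = 0.00679, adjusted p = 0.201 from edgeR, exact permutation p = 0.0281). Without mouse AAV-Notum-2032 it was 0.81, and mice AAV-Notum-2032 and AAV-Notum-2041, the ones with 560 and 433 Notum reads, had the lowest and the highest Fabp5 level of their group. Fabp5 rested on 638 to 1643 reads per mouse, against 225443 to 463919 for its neighbour on chromosome 3, Fabp4.

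Acsl1 (ENSMUSG00000018796, chromosome 8, 46471037 to 46536051, plus strand), the main long-chain acyl-CoA synthetase of fat, had 2406, 2834 and 3860 CPM in AAV-GFP mice and 1632, 2551 and 4580 CPM in AAV-Notum mice (lowest, median, highest). As with Fabp4, AAV-Notum mice held both ends: 3 were under and 2 over the whole control range. The coefficients of variation were 16.6% in AAV-GFP and 41.6% in AAV-Notum mice, while the log2 fold change was -0.02 (standard error 0.26, 95% interval -0.59 to 0.54, edgeR adjusted p = 0.966, exact permutation p = 0.680). The gene Gm45244 overlaps the bounds of Acsl1 on the other strand, but overlap of their exons was not examined. Whether the counting used strand is not given in the sources used here, so whether the pair shares reads is not known.

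Vldlr (ENSMUSG00000024924, chromosome 19, 27216484 to 27254231, plus strand), the lipoprotein receptor, had 55.2, 103 and 126 CPM in AAV-GFP mice and 68.0, 76.5 and 142 CPM in AAV-Notum mice (lowest, median, highest). Again 4 of 6 AAV-Notum values were under the control mean and that of mouse AAV-Notum-2042 was over all controls, so the means met at 91.9 ± 28.3 CPM and 91.3 ± 31.3 CPM (SD, n = 6 each). For Vldlr the log2 fold change was -0.01 (standard error 0.25, 95% interval -0.56 to 0.54, edgeR adjusted p = 0.988, exact permutation p = 0.996). For this gene and for Lpl, Lmf1, Cd36, Fabp4, Slc27a1 and Acsl1, a p that misses the threshold does not show that the groups had equal levels. Their intervals leave room for a difference in either direction, the least for Lmf1 (-0.27 to 0.12).

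Levels of different genes were set side by side per length, as RPKM, reads scaled to library size and to the length of the exons. The length was that of the annotated exons of a gene, 4489 bases for Fabp4, 10478 for Lpl and 13589 for Lmf1. For Fabp4 it equals the whole span of the gene, so it may exceed the length of the transcript made in fat. The order of genes and the overlaps between genes given here depend on these lengths, and other lengths were not tested. The order of the mean RPKM was the same in both groups. In AAV-GFP mice it ran from Fabp4 (4050 RPKM) through Lpl (1183), Cd36 (833), Acsl1 (284), Slc27a1 (182), Angptl4 (140), Gpihbp1 (42.9), Fabp5 (12.9) and Vldlr (9.12) to Lmf1 (2.16 RPKM). Fabp4 was set apart from Lpl, and Angptl4 from Gpihbp1, by ranges without overlap in both groups. Lpl overlapped Cd36 in both, Acsl1 overlapped Slc27a1, Slc27a1 overlapped Angptl4, and Fabp5 overlapped Vldlr, so in those pairs the ranges over mice do not separate the genes. Within a mouse the order was steadier: Lpl was over Cd36, Cd36 over Acsl1, Acsl1 over Slc27a1 and Fabp5 over Vldlr in 12 of 12 mice, and Slc27a1 was over Angptl4 in 11 of 12, all but AAV-GFP-2011. Gpihbp1 and Fabp5 were apart in AAV-GFP mice, where Gpihbp1 had 23.4 to 56.0 RPKM and Fabp5 10.5 to 15.9 RPKM, and overlapped in AAV-Notum mice, where they had 20.4 to 40.1 and 9.76 to 28.3 RPKM and Fabp5 was the higher one in mice AAV-Notum-2031 and AAV-Notum-2041. Cd36 and Acsl1 were likewise apart in AAV-GFP mice (497 to 1144 and 230 to 368 RPKM) and overlapped in AAV-Notum mice (421 to 917 and 156 to 437 RPKM). Together the 10 genes took 2.62% to 5.10% of the reads of a mouse, most of them from Lpl and Fabp4 (2.12% to 4.23%).

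**Figure D2:**
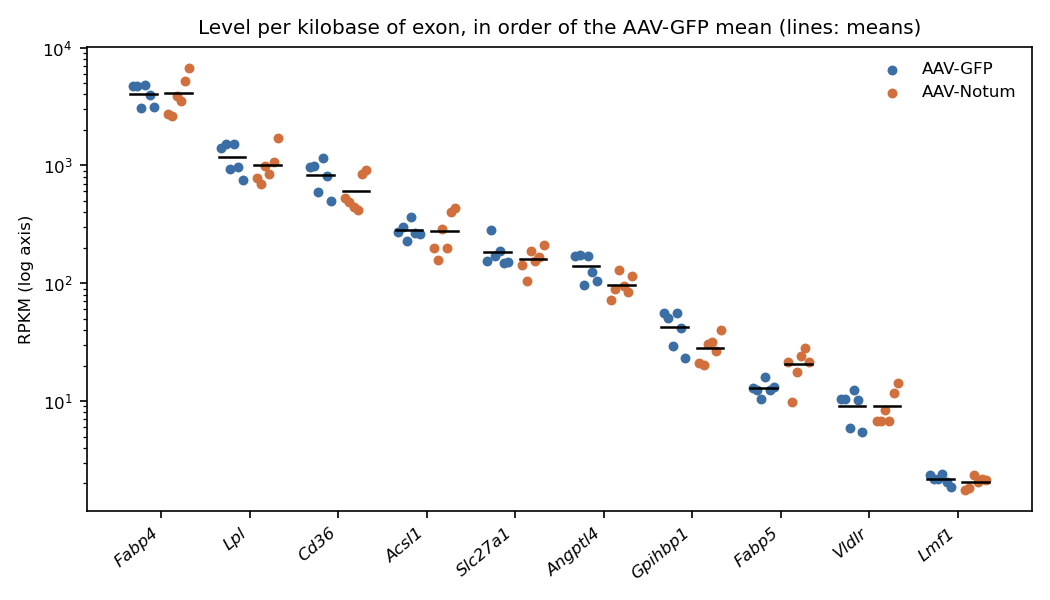
Levels in RPKM (reads scaled to library size and exon length, log axis) of the 10 genes in order of the AAV-GFP mean, with 1 point per mouse and lines for group means. The order of the means is the same in both groups, from Fabp4 (4050 RPKM in AAV-GFP mice) to Lmf1 (2.16 RPKM).

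Several members moved together from mouse to mouse within the groups. Over 12 mice, after the group means of log2 CPM were subtracted, the Pearson r between pairs of members was highest for Cd36 and Vldlr (0.94), followed by Lpl and Fabp4 and by Fabp4 and Vldlr (0.92 each). Fabp5 stood off, with its lowest r to Angptl4 (0.11), Lmf1 (0.35) and Gpihbp1 (0.38) and its highest to Acsl1 (0.65). Such r was common among other genes. By r with Lpl among 14428 genes, the other members ranked from 515 (Fabp4) to 6094 (Fabp5), so the values do not set the members apart. All these values share the libraries and their scaling, and are a description over 45 pairs.

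The proximal upstream sequence of the best-matched pair is shown, as the RefSeq promoter table gives it for GRCm38.p6. That table had entries for 5 of the 10 members: Cd36, Vldlr, Acsl1, Slc27a1 and Lmf1. Each run holds the 250 bases before a start, 5′ to 3′ on the strand of the gene: chr5:17835897-17836146 on the minus strand for Cd36, which lies inside the bounds of the gene given above and whose start is 179 bases from the nearest start of a GENCODE vM21 Cd36 transcript, and chr19:27216234-27216483 and chr19:27216770-27217019 on the plus strand for the 2 starts of Vldlr. Capitals mark the half-site AGGTCA that nuclear receptors such as PPARγ with RXR read, on either strand.
Cd36: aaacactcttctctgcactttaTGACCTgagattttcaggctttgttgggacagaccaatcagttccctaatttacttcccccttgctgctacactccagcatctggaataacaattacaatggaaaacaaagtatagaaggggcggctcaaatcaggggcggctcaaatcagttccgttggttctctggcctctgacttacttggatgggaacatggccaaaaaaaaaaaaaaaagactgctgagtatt
Vldlr, first start: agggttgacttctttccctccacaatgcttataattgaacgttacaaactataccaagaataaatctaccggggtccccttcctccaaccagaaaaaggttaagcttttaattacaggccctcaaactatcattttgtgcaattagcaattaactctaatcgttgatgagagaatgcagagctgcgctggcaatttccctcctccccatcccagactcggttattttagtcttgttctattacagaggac
Vldlr, second start: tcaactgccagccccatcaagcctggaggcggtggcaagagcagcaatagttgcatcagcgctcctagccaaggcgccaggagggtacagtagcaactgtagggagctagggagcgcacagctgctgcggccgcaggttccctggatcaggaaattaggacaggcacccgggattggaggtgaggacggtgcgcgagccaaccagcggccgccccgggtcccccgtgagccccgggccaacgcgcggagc
The half-site occurs once in the Cd36 window, 228 bases before the RefSeq start on the opposite strand, and in neither Vldlr window. It is present in 14% of 32851 windows of this length, and the direct repeat AGGTCANAGGTCA, absent from the members' windows, in 0.0335%. A match is a description of letters, not a site of binding. GC content was 43.2% for Cd36 and 41.6% and 66.4% for the starts of Vldlr.

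Most members varied with the adipocyte markers of the sample. The adipocyte marker score, the mean log2 CPM of 10 other adipocyte genes (Adipoq, Plin1, Cidec, Lep and others), was 10.32 ± 0.48 in AAV-GFP and 10.17 ± 0.39 in AAV-Notum mice (SD, n = 6 each). Over 12 mice, Pearson's r with this score was 0.91 for Lpl (Spearman's rho 0.94, permutation p = 7.00e-05 and 2.00e-05), and it was 0.87 without the 2 mice farthest from the median score. Vldlr (0.90), Gpihbp1 (0.88), Fabp4 (0.88), Lmf1 (0.80), Cd36 (0.78), Acsl1 (0.75) and Angptl4 (0.73) came next, with permutation p from 1.40e-04 to 0.00816 and r of 0.67 to 0.89 without those mice. Slc27a1 gave 0.61 (rho 0.62, permutation p = 0.0317 and 0.0377), and 0.40 without them. Those mice, AAV-Notum-2032 and AAV-GFP-2022, had the lowest adipocyte scores (9.61 and 9.66), and what lowered r was not tested. Fabp5 gave 0.30 (rho 0.29, permutation p = 0.339 and 0.366), and -0.01 without them, over groups whose Fabp5 means differed.

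Within the groups, r with the adipocyte score was 0.92 in AAV-GFP and 0.93 in AAV-Notum mice for Lpl (exact permutation p = 0.00694 and 0.00417, n = 6 each). For Gpihbp1 it was 0.98 and 0.91 (exact permutation p = 0.00278 and 0.0153, n = 6 each). Cd36 gave 0.98 in AAV-GFP and 0.60 in AAV-Notum mice (exact permutation p = 0.00278 and 0.210, n = 6 each), and Slc27a1 0.30 and 0.96 (exact permutation p = 0.613 and 0.00556, n = 6 each). Fabp5 gave 0.63 and 0.64 within the groups (exact permutation p = 0.183 and 0.163, n = 6 each), above its value over all mice, and 6 mice a group do not show whether it follows the score. Whether r differed between the groups was not tested, and 10 relations were computed over all mice.

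**Figure D3:**
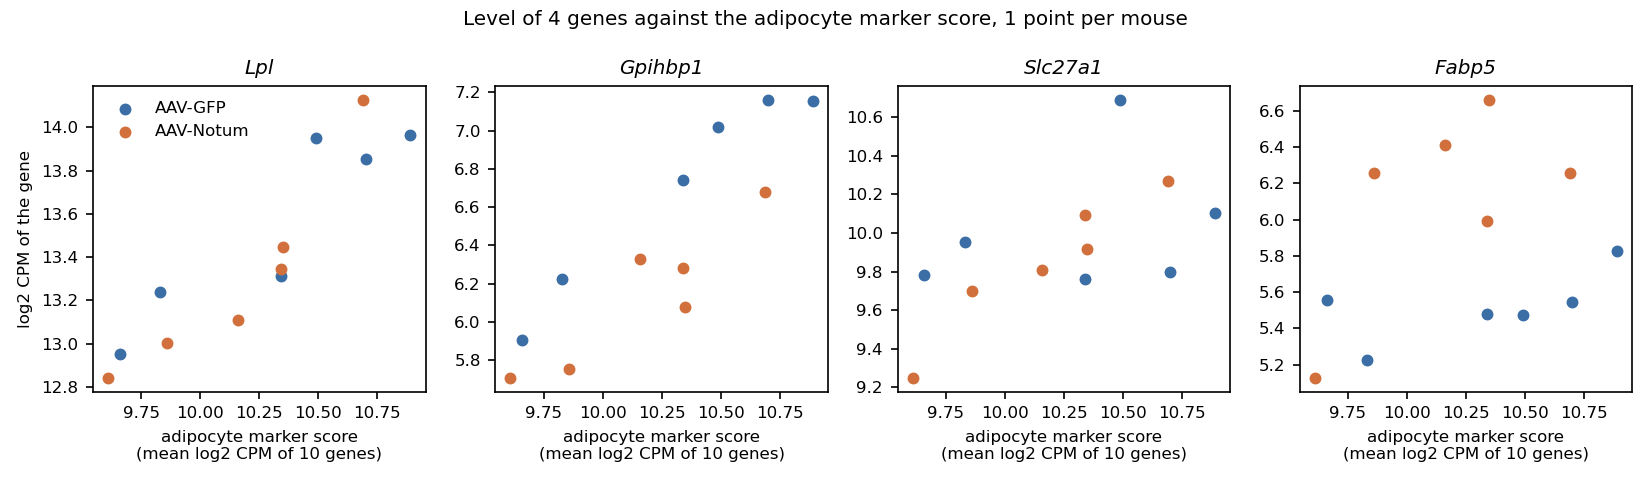
Level of 4 genes (log2 CPM, vertical) against the adipocyte marker score (mean log2 CPM of 10 genes, horizontal), with 1 point per mouse. Lpl lies along 1 line in both groups (r = 0.91), the Gpihbp1 points of AAV-Notum mice lie below those of AAV-GFP mice at like scores, mouse AAV-GFP-2012 stands above the rest for Slc27a1, and Fabp5 has r = 0.30 over all mice and 0.63 and 0.64 within AAV-GFP and AAV-Notum mice.

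With the adipocyte score as a covariate, Gpihbp1 was lower in AAV-Notum mice by a log2 fold change of -0.41 (standard error 0.08, edgeR adjusted p = 0.0253). This was the only member called in any of the alternatives run, in a fit that called 3.93% of all genes, and its adjusted p ranged from 0.0253 to 0.837 over the fits that kept all or all but 2 mice. Angptl4 had -0.40 (adjusted p = 0.0790, range over the same fits 0.0790 to 0.768) with the adipocyte score in edgeR. Fabp5 had 0.71 (adjusted p = 0.0520, range 0.0520 to 0.542) and Cd36 -0.29 (adjusted p = 0.266, range 0.266 to 0.970) there. With both the adipocyte and the lymphoid score as covariates, a fit added once results were known, Gpihbp1 had -0.40 (edgeR adjusted p = 0.183), Angptl4 -0.32 and Fabp5 0.59. With the lymphoid score alone, the log2 fold changes of Lpl (0.17), Lmf1 (0.03), Acsl1 (0.19) and Vldlr (0.36) turned above 0, while Fabp5 had 0.80.

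**Figure D4:**
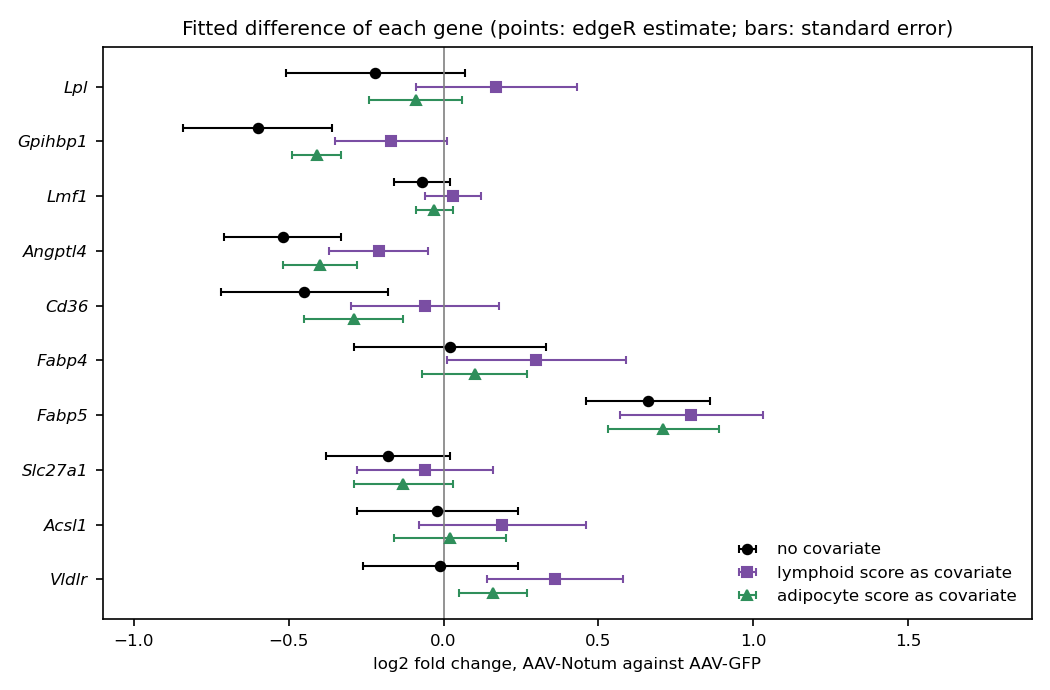
Log2 fold change of each gene between AAV-Notum and AAV-GFP mice (horizontal; points are edgeR estimates and bars standard errors) without a covariate, with the lymphoid score and with the adipocyte score. Fabp5 stays above 0 in all 3 fits (0.66, 0.80 and 0.71), and Gpihbp1, Angptl4 and Cd36 stay below 0 in all 3.

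Member levels were also set directly against marker scores in each mouse, a scale chosen after the values were seen. Relative to the adipocyte score, Gpihbp1 was at -3.76 to -3.46 in AAV-GFP mice and at -4.27 to -3.83 in AAV-Notum mice on the log2 scale. The groups did not overlap, with all 6 AAV-Notum values under the lowest control value, which was so for 0.513% of all genes on this scale, with a mean difference of -0.41 (two-sided exact permutation p = 0.00216, the smallest that 6 against 6 mice can give, n = 6 each). Without mice AAV-GFP-2014 and AAV-GFP-2011 the difference was -0.42 (exact permutation p = 0.00476). With Benjamini-Hochberg adjustment of the exact permutation p over the 15585 genes on this scale, p was 0.361 for Gpihbp1, 0.542 for Fabp5 and 0.812 for Angptl4, and the smallest of any gene was 0.361.

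GPIHBP1 is made by capillary endothelium, and most capillary endothelial markers had fold changes of the same sign. Of 12 such markers tested, among them Pecam1, Cdh5 and Kdr, 11 had a log2 fold change below 0, 6 of them at an unadjusted p under 0.05 and 0 at an adjusted p under 0.05 from edgeR (2 with DESeq2, Aqp1 and Ptprb), and their median was -0.41. With the lymphoid score as a covariate that median was -0.08. Mice AAV-GFP-2014, AAV-GFP-2011 and AAV-GFP-2012, the lowest of all in lymphoid score (-0.08, 0.49 and 3.74), had the 3 highest endothelial scores (6.99, 6.93 and 7.08), and the part of the lymphoid share in the endothelial median was not tested further. The summed level of the endothelial markers was 1232 to 2104 CPM in AAV-GFP mice and 1118 to 1604 CPM in AAV-Notum mice. Relative to the mean log2 CPM of these markers, Gpihbp1 lay at -0.37 to 0.23 (AAV-GFP) and at -0.42 to -0.01 (AAV-Notum). These ranges overlapped, with a difference of -0.20 (exact permutation p = 0.117, n = 6 each), and -0.10 without mice AAV-GFP-2014 and AAV-GFP-2011. The part of endothelial RNA in the Gpihbp1 difference was not tested beyond these values.

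The Fabp5 difference was above 0 on each scale. Relative to the adipocyte score it differed by 0.75 (exact permutation p = 0.0152, n = 6 each; 6 of 6 AAV-Notum values over the control mean), and by 0.60 without mice AAV-GFP-2014 and AAV-GFP-2011 (exact permutation p = 0.0571). Relative to the capillary endothelial score the difference was 0.96 (exact permutation p = 0.00433, n = 6 each), on a scale where 27.2% of all genes had an exact permutation p under 0.05, and p was 0.0838 for Fabp5 after adjustment of the exact permutation p over all 15585 genes. Relative to the macrophage score, which was 5.89 ± 0.43 in AAV-GFP and 5.82 ± 0.25 in AAV-Notum mice, it was 0.67 (exact permutation p = 0.0758, n = 6 each). Without mice AAV-GFP-2014 and AAV-GFP-2011 the endothelial and macrophage scales gave 0.92 and 0.89 (exact permutation p = 0.019 and 0.0381). The log2 ratio of Fabp5 to Fabp4 lay between -8.89 and -8.21 in AAV-GFP mice and between -8.62 and -7.32 in AAV-Notum mice, a difference of 0.64 (exact permutation p = 0.0173, n = 6 each), with 4 of 6 AAV-Notum values over the control range. Without mice AAV-GFP-2014 and AAV-GFP-2011 that ratio differed by 0.60 (exact permutation p = 0.0667).

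The ratios to the lipase gave smaller differences. The log2 ratio of Gpihbp1 to Lpl differed by -0.33 (exact permutation p = 0.0303, n = 6 each), with 5 of 6 AAV-Notum values under the control range, and by -0.28 without mice AAV-GFP-2014 and AAV-GFP-2011 (exact permutation p = 0.0952). That of Angptl4 to Lpl differed by -0.27 (exact permutation p = 0.139), that of Cd36 to Lpl by -0.23 (exact permutation p = 0.143) and that of Acsl1 to Cd36 by 0.35 (exact permutation p = 0.102), all with n = 6 each and overlapping ranges. Adjusted by Benjamini-Hochberg over these 5 ratios, the exact permutation p was 0.0757 for Fabp5 to Fabp4 and for Gpihbp1 to Lpl, and 0.143 for the other 3.

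**Figure D5:**
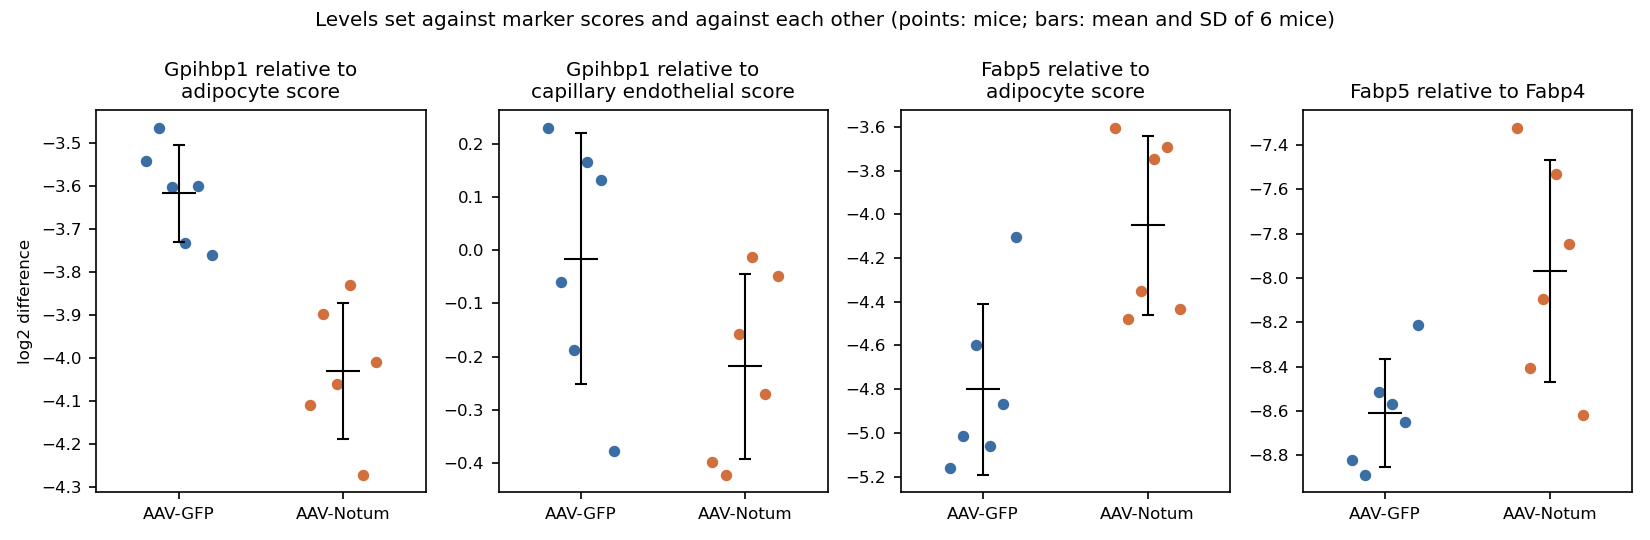
Gpihbp1 relative to the adipocyte and to the capillary endothelial marker score, and Fabp5 relative to the adipocyte score and to Fabp4, as log2 differences (vertical), with 1 point per mouse and bars for the mean and SD of 6 mice. The groups separate only for Gpihbp1 against the adipocyte score, at -3.76 to -3.46 (AAV-GFP) and -4.27 to -3.83 (AAV-Notum).

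By Pearson's r of log2 CPM over 12 mice after subtraction of group means, among 14428 genes of at least 1 CPM, Lpl was followed most closely by Ywhab (0.994), Clic5 (0.988), Ppm1a (0.983), Oxct1 (0.981) and Hibadh (0.981). For Fabp5 the top 5 were Syngr1 (0.947), Slc25a1, the mitochondrial citrate carrier (0.935), Pdhb and Pdha1, subunits of pyruvate dehydrogenase (0.927 each), and Mpc2, of the mitochondrial pyruvate carrier (0.915). The log2 fold changes of these 5 were 0.76, 0.89, 0.47, 0.46 and 0.27, with an edgeR adjusted p of 0.140 to 0.490.

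Further genes of the pathway were described by list, and in each list edgeR called 0 genes at an adjusted p under 0.05. DESeq2 called 4 of the LPL regulators (Angptl8 higher, Hspg2, Pcsk5 and Creb3l3 lower), 1 lipoprotein receptor (Lrp1), 1 acyl-CoA synthetase (Acsm5) and 3 fasting genes (Errfi1, Per1 and Zbtb16), and 0 in the other pathway lists. Of 19 tested genes that mature, anchor or regulate LPL, 15 had log2 fold changes below 0, 8 of them at an unadjusted p under 0.05, with a median of -0.32 (-0.20 with the adipocyte score as a covariate). Hspg2, the heparan sulfate proteoglycan perlecan of basement membranes, had 972 ± 281 CPM in AAV-GFP and 560 ± 83.4 CPM in AAV-Notum mice (SD, n = 6 each, log2 fold change -0.80, edgeR adjusted p = 0.140, exact permutation p = 0.0130). Angptl8, a feeding-induced partner in LPL inhibition, was on the other side from Angptl4, at 5.42 ± 0.909 and 9.62 ± 3.34 CPM (SD, n = 6 each, log2 fold change 0.83, edgeR adjusted p = 0.166, exact permutation p = 0.0238; 5 of 6 AAV-Notum values over the control mean).

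Of 16 tested genes for fatty acid transport and binding other than the members, 14 were below 0, 3 of them at an unadjusted p under 0.05, with a median of -0.45, which was -0.10 with the lymphoid score as a covariate. The caveola genes Cavin3 (log2 fold change -0.92, edgeR adjusted p = 0.283) and Cavin1 (-0.49, adjusted p = 0.305), which CD36-mediated uptake makes use of, had the smallest p. This list and that of LPL regulators hold genes of liver, such as Slc27a5 (log2 fold change -2.89), Fabp1 (-2.60) and Apoa5 (-3.16). The summed hepatocyte marker level was 2304 to 8981 CPM in AAV-GFP mice and 1728 to 7394 CPM in AAV-Notum mice, of which Cyp2e1 (means of 3044 and 3545 CPM, log2 fold change 0.22) made up 57.5% to 94.4% in 11 mice. In mouse AAV-GFP-2013, which had the highest sum, Cyp2e1 made up 34.8% and Alb 42.4%. The median log2 fold change of the hepatocyte markers was -2.79, but -1.16 without mouse AAV-GFP-2013, -4.53 without mouse AAV-Notum-2041 and -0.35 with at least 10 counts in every mouse, and its part in the medians of those lists was not tested. Among 10 other lipoprotein receptors and partners, 5 were above and 5 below 0 (median -0.01), 1 of them at an unadjusted p under 0.05, and Lrp1, which takes up remnant particles, had -0.63 (edgeR adjusted p = 0.2). The next smallest p was that of Lrp8, the apolipoprotein E receptor 2, with a log2 fold change on the other side of 0 (1.31, standard error 0.69, edgeR adjusted p = 0.399, exact permutation p = 0.0390; 5 of 6 AAV-Notum values over the control mean).

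Of 11 acyl-CoA synthetases other than Acsl1, 8 were above 0 and 3 below (median 0.10), with 1 on each side at an unadjusted p under 0.05, Acsm5 at -0.95 (edgeR adjusted p = 0.166) and the mitochondrial acetyl-CoA synthetase Acss1 at 0.63 (adjusted p = 0.230). For re-esterification to triglyceride, 10 of 19 genes were above 0 (median 0.05) and 2 below 0 at an unadjusted p under 0.05, Aqp7, the glycerol channel of adipocytes, at -0.68 and Lpin3, a phosphatidate phosphatase, at -0.55 (edgeR adjusted p = 0.243 and 0.294). Of 15 genes of PPARγ and its partners, the regulators of many members, 7 were above and 8 below 0 (median -0.05), with 1 on each side at an unadjusted p under 0.05, Cebpb at -0.56 and Ppargc1b at 0.58 (edgeR adjusted p = 0.214 and 0.328).

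Angptl4 responds to fasting and glucocorticoids, and 10 of 10 genes of a fasting and glucocorticoid list had log2 fold changes below 0, 6 of them at an unadjusted p under 0.05, with a median of -0.57. Errfi1 had -1.17 (edgeR adjusted p = 0.130, exact permutation p = 0.00649) and Zbtb16 -1.09 (edgeR adjusted p = 0.140, exact permutation p = 0.00433). This list was chosen with its direction known, so it adds no independent evidence to the Angptl4 value. Brown and beige fat markers, in which Fabp5 was not included, had a score of 2.73 ± 0.65 in AAV-GFP and 3.37 ± 0.75 in AAV-Notum mice (SD, n = 6 each). The scores overlapped, at 1.71 to 3.52 and 2.43 to 4.49. Of the 10 markers, 8 had log2 fold changes above 0 and 2 below. Of those above, 2 had an unadjusted p under 0.05, and edgeR called 0 at an adjusted p under 0.05 (1 with DESeq2, P2rx5).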

How the data were processed

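The authors isolated RNA from iWAT of 12 mice, prepared TruSeq libraries, sequenced 50 bp single-end reads on a HiSeq4000 and, per the processing notes, used FastQC, STAR 2.3.1 on mm10 and DESeq2. The read counter and annotation are not given in the sources used here. The deposited table of counts holds reads per gene without normalization. The second table, as deposited by the authors, holds log2 values of reads divided by a size factor plus 1, and undoing this gave whole reads for 100% of values (within 0.02). The totals of the members differed by up to 2.83% between the tables, and the counts were used unless stated.

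Groups were taken from the labels. Counts were filtered (edgeR 4.0.16 filterByExpr, minimum count 10, minimum total 15; R 4.3.3), scaled by TMM and tested with the two-sided quasi-likelihood test, with Benjamini-Hochberg adjustment over 15585 genes and a threshold of 0.05. CPM refer to TMM-scaled library sizes, log2 CPM use 2 as the prior count, standard errors are log2 fold changes over the square root of F, and intervals are 95%. Exact permutation tests ran over all assignments of mice to groups, correlations over 12 mice over 100000 permutations. RPKM used exon lengths of GENCODE vM21 (GRCm38). Sequences are from RefSeq. The code was tested on simulated counts.

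The members and gene lists were chosen with earlier results of these data known. Named genes are the members, Notum, the 2 genes of smallest p in each pathway list and the 5 most like Lpl and the member of smallest p. Slc27a5, Fabp1, Apoa5, Pcsk5, Creb3l3, Per1 and the marker genes named were picked as examples once values were known. The alternatives run were DESeq2 1.42.0, limma-voom (limma 3.58.1), RLE size factors, other filters, a robust fit, covariates (RNA integrity number, lymphoid or adipocyte score), the deposited log2 values, recovered reads, another prior count, CPM, mice AAV-GFP-2014 and AAV-GFP-2011 left out, and each mouse left out. Both scores together, levels relative to marker scores and ratios were added after the data were seen. Nothing in the labels says that mice were pooled. Counting error was smallest for Fabp4 and largest for Lmf1 (410 to 601 reads per mouse). Matplotlib 3.10.9 drew the figures.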

Additional observations from a re-analysis of the deposited data

Results flagged for a closer look

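Values of 1 mouse far from the other 5 of its group were sought in 38 groups of 6 values (10 members, 9 marker scores, 2 groups) by the gap to the nearest mouse over the range, with a limit of 0.625. There were 3, and chance gives about 1 in 20 groups, or 1.9. The Lpl level of mouse AAV-Notum-2042 (ratio 0.637) was 17886 CPM, against 7342 to 11170 CPM in the other 5, and the same mouse had the highest summed skeletal muscle marker level (3784 CPM, against 798 CPM or less in every other mouse). The Slc27a1 level of mouse AAV-GFP-2012 (ratio 0.704) was 1651 CPM, against 868 to 1100 CPM, and this mouse alone had the later RNA isolation. The macrophage marker score of mouse AAV-GFP-2014 (ratio 0.696) was 5.06, against 5.85 to 6.20, and the same mouse had the lowest lymphoid score (-0.08).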

How the results depend on the processing

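No paired analysis was possible because the groups share no mouse numbers. Fabp5 kept a log2 fold change above 0 (0.55 to 0.81), and Gpihbp1 (-0.72 to -0.17), Angptl4 (-0.62 to -0.21), Cd36 (-0.61 to -0.06) and Slc27a1 (-0.33 to -0.01) one below 0, under the alternatives run. Genes called higher and lower numbered 84 and 367 with DESeq2, 1 and 13 with RLE size factors, 1 and 14 with 10 counts in every mouse, 207 and 406 with the adipocyte score (1 member, Gpihbp1, lower) and 1 and 20 with both scores. Recovered reads gave 1 gene higher. Genes lower numbered 5 with 1 count in all, 4 with the lymphoid score, 1 without mice AAV-GFP-2014 and AAV-GFP-2011 and 4 with the deposited log2 values. Leaving out 1 mouse gave 0 to 12 genes higher (12 without mouse AAV-GFP-2022) and 1 to 146 lower (146 without that mouse, 1 without mouse AAV-Notum-2033). Members lower at an unadjusted p under 0.05 numbered 1 with the RNA integrity number or both scores, 0 with the lymphoid score or without mice AAV-GFP-2014 and AAV-GFP-2011, and 1 to 3 with 1 mouse left out (1 without AAV-GFP-2011, AAV-GFP-2012 or AAV-GFP-2014 or AAV-Notum-2031 or AAV-Notum-2032).

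Members near 0 changed sign, and the cause was not tested. Fabp4 had -0.03 with limma-voom and with the deposited values and -0.04 with both scores. Vldlr had 0.01 with limma-voom and with 10 counts in every mouse, 0.07 with the RNA integrity number, 0.36 with the lymphoid score, 0.16 with the adipocyte score, 0.18 without mice AAV-GFP-2014 and AAV-GFP-2011 and 0.10 with both scores. Acsl1 had 0.19, 0.02 and 0.07 with the lymphoid score, with the adipocyte score and without those mice. Lpl had 0.17 and Lmf1 0.03 with the lymphoid score. With 1 mouse left out, Fabp4 ranged from -0.18 to 0.12, Acsl1 from -0.20 to 0.10 and Vldlr from -0.18 to 0.10. Exact permutation p with a turned sign was 0.688 for Lmf1, 0.372 for Fabp4, 0.825 for Acsl1 and 0.223 for Vldlr relative to the adipocyte score, 0.952 for Fabp4 in CPM, and 0.790 for Fabp4 and 0.557 for Vldlr without mice AAV-GFP-2014 and AAV-GFP-2011. With 1 mouse left out, exact permutation p ranged from 0.355 to 0.978 (Fabp4), 0.294 to 0.918 (Acsl1) and 0.576 to 1.00 (Vldlr). For Angptl4 it was 0.0195 to 0.0801 and for Fabp5 0.00216 to 0.0584, with the p reaching over 0.05 without any 1 of AAV-GFP-2011, AAV-GFP-2012 or AAV-GFP-2014 or AAV-Notum-2031, AAV-Notum-2032, AAV-Notum-2034 or AAV-Notum-2041 (Angptl4), or AAV-GFP-2013 or AAV-Notum-2031, AAV-Notum-2034, AAV-Notum-2041 or AAV-Notum-2042 (Fabp5). For Gpihbp1 it was 0.0195 to 0.117, under 0.05 without any 1 of AAV-GFP-2013, AAV-GFP-2022 or AAV-Notum-2042. Among the 4 other alternatives of this test, 2 put Gpihbp1 under 0.05, the level relative to the adipocyte score among them. The mammary list had no gene left under 1 filter.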
